A study of Mus musculus with 17 samples.

Results

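A set of 9 genes that mark the layers of the cerebral cortex, Cux2, Rorb, Rasgrf2, Bcl11b, Fezf2, Etv1, Foxp2, Tle4 and Tbr1, were followed in bulk RNA-seq of mouse cortex. They were chosen by gene symbol, and each of the 9 matched 1 row among the 55453 distinct symbols of the deposited table. The cortex came from 17 male C57BL/6J mice in 6 groups. At 8 weeks there were 3 hemizygous Hnrnph2 KO mice with 3 wild-type controls of the same line (KO controls), and 3 hemizygous Hnrnph2 R206W knockin mice with 3 wild-type controls (R206W controls). At 3 weeks there were 3 hemizygous Hnrnph2 P209L knockin mice with 2 wild-type controls (P209L controls). The KO allele is a frameshift with a premature stop, and both knockins change 1 residue of the nuclear localization signal of hnRNPH2, which binds RNA and whose gene is X-linked. The alleles are carried in the germline, so the comparisons are not confined to neurons. All 3-week mice belonged to the P209L line, so that age and line cannot be told apart.

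The neocortex is built of layers whose excitatory neurons differ in birth date and in the targets of their axons. Upper-layer neurons connect cortical areas with each other or receive thalamic input, layer 5 neurons include those that project to the spinal cord and brainstem, and layer 6 neurons project back to the thalamus. Many of the transcription factors that set these identities in the embryo stay on in the mature neurons, where their transcripts serve as layer markers. Cux2 is a homeodomain factor of layers 2 to 4, Rorb an orphan nuclear receptor enriched in layer 4, and Rasgrf2 a guanine nucleotide exchange factor used as a marker of layers 2 and 3. Fezf2 is the zinc finger factor that selects the subcerebral fate, and Bcl11b (also called Ctip2) acts after it in layer 5 and is strongly expressed in striatal neurons too. Etv1 (Er81) is an ETS factor of layer 5 and of some interneurons. Foxp2 is a forkhead factor of layer 6, Tle4 a corepressor of the Groucho family in layer 6 and part of layer 5, and Tbr1 a T-box factor of layer 6 that is also present in other excitatory neurons.

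The genes lie apart, and only Rorb with Tle4 and Bcl11b with Etv1 share a chromosome. In GRCm38 (GENCODE M21) Cux2 is on chromosome 5 (121856366 to 122050102, minus strand), Rorb on chromosome 19 (18930605 to 19111196, minus), Rasgrf2 on chromosome 13 (91880400 to 92131656, minus) and Bcl11b on chromosome 12 (107910403 to 108003602, minus). Fezf2 is on chromosome 14 (12342094 to 12348189, minus), Foxp2 on chromosome 6 (14901349 to 15441977, plus), Tle4 on chromosome 19 (14448150 to 14598051, minus), Etv1 on chromosome 12 (38779380 to 38870484, plus) and Tbr1 on chromosome 2 (61802930 to 61814114, plus). Only Cux2 is overlapped by annotated antisense genes, and their mean levels over all mice were at most 0.022 TPM.

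RefSeq promoter windows (GRCm38.p6) were at hand for 8 of the 9 genes, as 12 windows of 250 bases before an annotated start. Stretches are printed for 4 genes, chosen to set 2 that passed the main test of the comparison by age below beside 2 that did not. Bcl11b and Tle4 were lower at 3 weeks under every setting tried. Rorb passed under none of the 32 settings, and Fezf2 under 2 of them, though not in the main test. Each stretch runs 5′ to 3′ on the strand of its gene and leaves out bases in annotated exons. Capitals mark GC boxes (GGGCGG, a binding motif of Sp factors) and CCAAT boxes (CCAAT, bound by NF-Y), read on either strand, with no overlap between matches. The stretches of Rorb (chr19:19111197-19111446), Tle4 (chr19:14598184-14598433) and Bcl11b (chr12:108003603-108003664) lie outside the annotated gene bounds, and that of Fezf2 (chr14:12345960-12346115) lies inside the gene bounds but outside its annotated exons; all 4 are on the minus strand.
Bcl11b: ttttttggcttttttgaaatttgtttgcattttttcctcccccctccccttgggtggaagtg
Tle4: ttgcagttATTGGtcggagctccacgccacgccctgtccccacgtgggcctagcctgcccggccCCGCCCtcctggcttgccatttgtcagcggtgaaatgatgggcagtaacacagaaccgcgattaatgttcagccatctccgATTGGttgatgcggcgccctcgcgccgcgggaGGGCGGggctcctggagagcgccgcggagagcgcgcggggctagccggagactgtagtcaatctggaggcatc
Fezf2: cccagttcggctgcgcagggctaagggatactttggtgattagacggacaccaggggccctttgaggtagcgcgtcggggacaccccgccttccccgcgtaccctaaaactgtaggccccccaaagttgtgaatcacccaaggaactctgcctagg
Rorb: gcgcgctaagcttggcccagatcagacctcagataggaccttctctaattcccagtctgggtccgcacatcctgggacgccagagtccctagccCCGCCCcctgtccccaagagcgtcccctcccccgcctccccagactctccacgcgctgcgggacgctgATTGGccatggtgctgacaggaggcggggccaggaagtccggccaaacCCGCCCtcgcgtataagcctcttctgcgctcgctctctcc
Tle4 showed 2 GC boxes and 2 CCAAT boxes, Rorb 2 GC boxes and 1 CCAAT box, and the stretches of Bcl11b and Fezf2 neither. The stretches are not equal in length: 250 bases for Tle4 and Rorb, 156 for Fezf2 and 62 for Bcl11b. With its exon bases included, the Fezf2 window holds 1 GC box. Rorb and Tle4 each have another window, not printed: that of Rorb holds neither box, and that of Tle4 holds 1 GC box. Among all 12 windows of the layer genes 5 held a GC box and 2 a CCAAT box, against 32.7% and 33.9% of the 32851 windows of all genes. A TATA box (TATAAA) had a match in 2 of the 12 windows, against 12.4% of all windows. A T-box half-site (GGTGTGA), an E-box (CAGCTG) and an ETS core (CCGGAAG) had no match in the 12 windows, and are present in 3.33%, 13.0% and 6.91% of all windows. These matches describe letters in a window only.

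Levels are given as TPM, transcript abundance corrected for transcript length and scaled to the same total in each mouse, a unit in which genes can be compared with each other. The read depth behind the values is unknown, so no counting error can be given, and the mice of a group are the only measure of error. In bulk tissue fewer cells of a type and less RNA per cell cannot be told apart. Hnrnph2 itself, the check of the labels, was at 21.3 to 24.4 TPM in KO mice and at 80.5 to 145 TPM in their controls. The library of KO control 1 stood apart: mitochondrial genes took 20.1% of its TPM, against 10.7% to 15.4% in the other 16 libraries, and it had the lowest value of the 6 controls at 8 weeks for all 9 layer genes. The excitatory neuron markers were all detected, with summed levels of 2360 to 5043 TPM in every mouse, while the olfactory bulb genes Eomes, Tbx21 and Shisa3 and the striatal genes Drd2 and Isl1 had means below 1 TPM.

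In the 6 wild-type controls at 8 weeks the layer genes spanned from 4.24 to 110 TPM. Rasgrf2 was highest at 110 ± 23.4 TPM (SD, n = 6), followed by Cux2 at 67.4 ± 13.7 and Tbr1 at 53.9 ± 12.9. The layer 5 genes Etv1 and Fezf2 came next at 32.7 ± 5.80 and 21.1 ± 4.19 TPM. Tle4 was at 16.1 ± 2.45 TPM, Rorb at 13.7 ± 2.25, Bcl11b at 13.7 ± 3.09 and Foxp2 was lowest at 4.24 ± 0.713 TPM. The order Rasgrf2, Cux2, Tbr1, Etv1, Fezf2, Tle4 held inside each of the 12 mice at 8 weeks, mutants included, and Foxp2 was below Bcl11b in all 17 mice. Tle4, Rorb and Bcl11b were not separated: Tle4 exceeded Rorb in 8 of the 12 mice and Rorb exceeded Bcl11b in 6 of the 12.

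**Figure D1:**
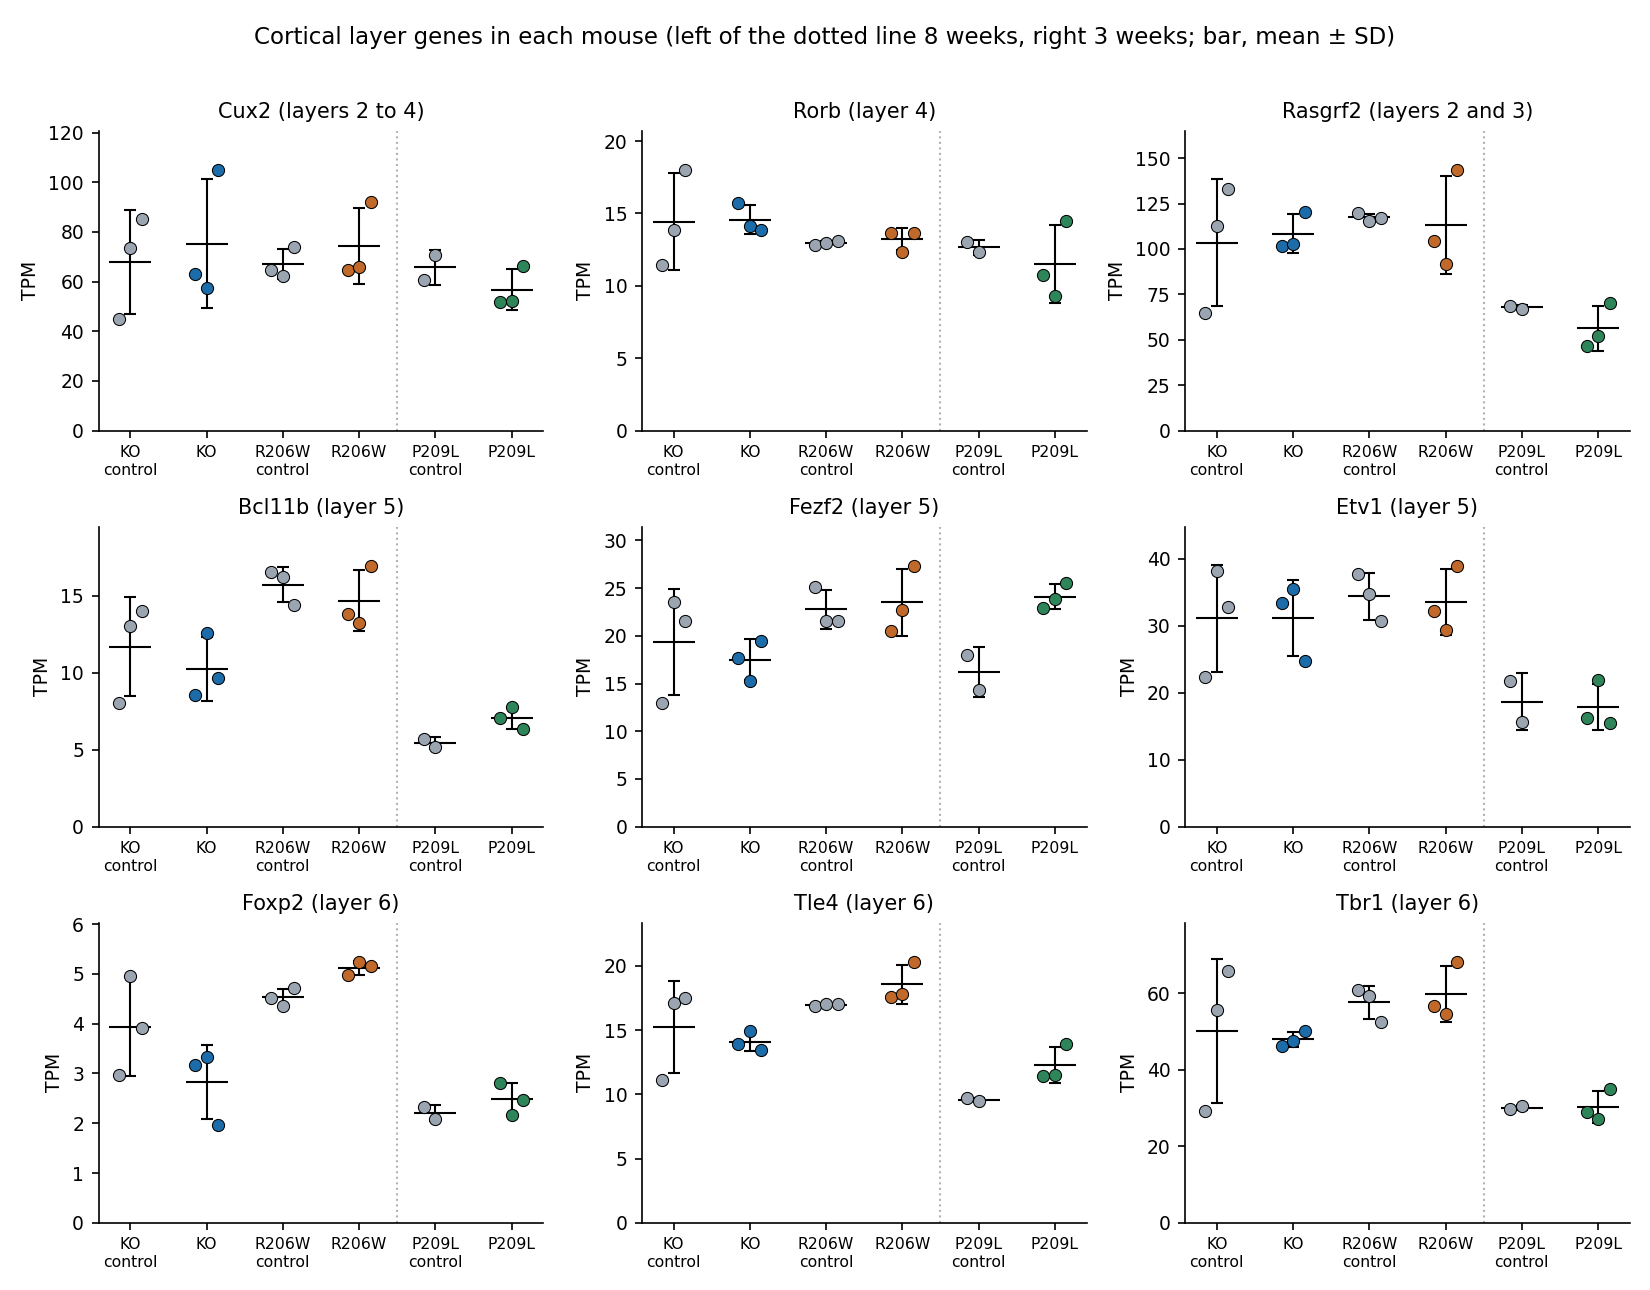
Level in TPM (vertical axes, from 0) of each layer gene in each mouse of the 6 groups (horizontal axes), with the group mean and SD as bars and the 3-week groups right of the dotted line. Bcl11b lies between 5.14 and 7.76 TPM in the 5 mice at 3 weeks and at 8.01 TPM or above in the 12 mice at 8 weeks, while Cux2 and Rorb overlap between the ages.

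The wild-type controls of the 2 ages were compared first, because this was the comparison in which the layer genes differed most. Of the 9 genes 6 were lower at 3 weeks than at 8 weeks (limma on log2(TPM + 1), adjusted p under 0.05, adjusted over all 16265 genes tested) and none was higher. Across all genes 36.1% passed in either direction and 24.8% were lower. The median difference of the 9 genes was −0.68 on the log2 scale, against −0.12 over all genes. The 6 genes included all 3 layer 6 genes, 2 of the 3 layer 5 genes and 1 of the 3 upper-layer genes.

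Bcl11b showed the largest difference of the 9. It was at 5.14 and 5.72 TPM in the P209L controls, at 8.01, 13.0 and 14.0 TPM in the KO controls, and at 14.4, 16.2 and 16.6 TPM in the R206W controls. Both 3-week controls thus lay below every 8-week control, and their mean was 39.7% of the 8-week mean. The log2 difference was −1.16 (SE 0.176, limma adjusted p = 0.000225), a value exceeded downwards by 1.96% of all genes. Fezf2, which acts before Bcl11b in the same neurons, was at 14.4 and 18.0 TPM at 3 weeks, which lay inside the 8-week range of 13.0 to 25.1 TPM only through KO control 1 at 13.0 TPM, since the other 5 controls had 21.5 TPM or more. Its log2 difference was −0.34 (SE 0.178, limma adjusted p = 0.146). It was −0.46 and called without KO control 1, and it ran from −0.19 without P209L control 2 to −0.49 without P209L control 1. There were 2.80 and 3.15 Fezf2 transcripts for each of Bcl11b in the 3-week controls, against 1.33 to 1.81 in the 8-week controls. Etv1, at 15.6 and 21.7 TPM, lay below the 22.4 to 38.1 TPM of the 8-week controls, with a log2 difference of −0.78 (SE 0.199, limma adjusted p = 0.00739).

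The layer 6 genes were lower together. Tle4 was at 9.49 and 9.68 TPM in the 3-week controls and at 11.2 to 17.5 TPM in the 8-week controls, and its log2 difference was −0.68 (SE 0.139, limma adjusted p = 0.00181). Foxp2 was at 2.09 and 2.32 TPM against 2.97 to 4.95 TPM, a mean of 52.0% of the 8-week level, with a log2 difference of −0.70 (SE 0.158, limma adjusted p = 0.00348). Tbr1 was at 29.7 and 30.6 TPM, which overlapped with the 8-week range only through KO control 1 at 29.2 TPM. The other 5 controls at 8 weeks had 52.7 to 65.9 TPM of Tbr1, and the log2 difference was −0.78 (SE 0.209, limma adjusted p = 0.00995).

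Upper-layer genes were divided. Rasgrf2 was at 67.1 and 68.8 TPM at 3 weeks and at 64.9 to 133 TPM at 8 weeks, where again KO control 1 was the lowest, and its log2 difference was −0.66 (SE 0.221, limma adjusted p = 0.0297). Cux2 was at 60.8 and 70.6 TPM at 3 weeks and at 44.9 to 85.3 TPM at 8 weeks, with a difference of −0.01 on the log2 scale (95% interval −0.52 to 0.49). Rorb was at 12.3 and 13.0 TPM against 11.4 to 18.0 TPM, with a difference of −0.10 (95% interval −0.42 to 0.23). Neither passed the test, and with size factors, a scaling that brings the median of all genes from −0.12 to 0, both values turned to 0.13 and 0.04. The 6 genes that passed kept their direction under that scaling, with differences from −1.04 for Bcl11b to −0.52 for Rasgrf2, although the calls over all genes moved from 1837 higher and 4039 lower to 3503 and 3677. Cux2 and Rasgrf2 were therefore near each other at 3 weeks, with Cux2 to Rasgrf2 ratios of 0.884 and 1.05, whereas the ratio lay between 0.540 and 0.691 in the 8-week controls.

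The groups did not overlap for 4 of the 9 genes, Bcl11b, Foxp2, Tle4 and Etv1, each lower at 3 weeks; across all genes 38.2% did not overlap. With 2 mice against 6 the smallest two-sided p of an exact permutation test is 0.0714, which these 4 genes reached. The count of 6 rested in part on single libraries: 2 genes (Bcl11b and Tle4) passed without P209L control 2, 4 without P209L control 1, 5 without KO control 2, and 7, with Fezf2 added, without KO control 1. With KO controls alone as the 8-week group 4 genes passed, and with R206W controls alone 6.

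**Figure D2:**
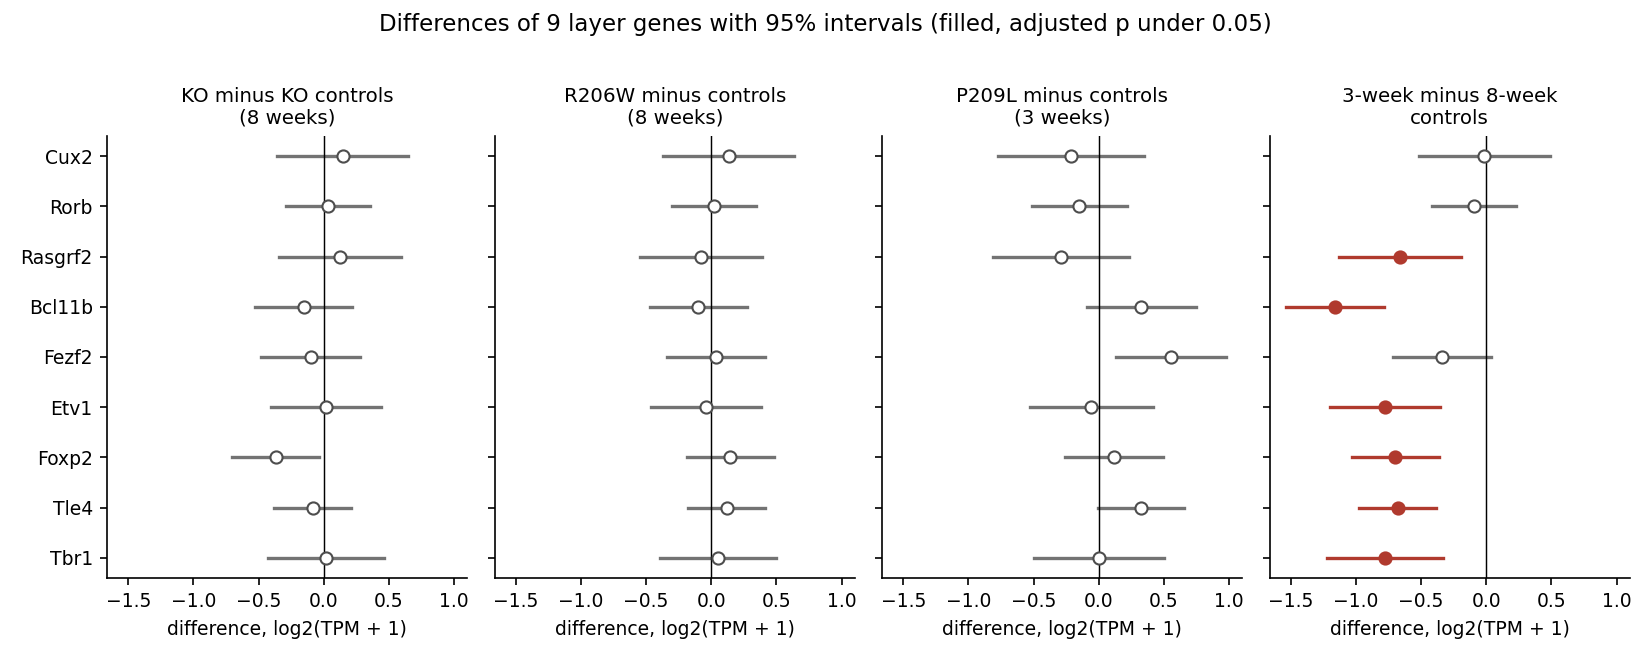
Difference in log2(TPM + 1) of each layer gene (horizontal axes) in 4 comparisons, with 95% intervals as lines and filled points where the adjusted p was under 0.05. Filled points occur only in the comparison of controls by age, where 6 of 9 genes are lower at 3 weeks.

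Lists of other cortical genes were set beside the 9, and their counts are to be read against the 24.8% of all genes that were lower and the 36.1% that passed in either direction. Of 10 further markers of layers 2 to 4, 4 were lower at 3 weeks and none higher, among them the POU factor gene Pou3f3 (log2 difference −0.87, SE 0.153) and the LIM homeodomain gene Lhx2 (−0.58, SE 0.130). Of 9 further layer 5 markers tested, 4 were lower, with the mTOR regulator gene Deptor at −1.05 (SE 0.156), Pou3f1 at −0.75 and the natriuretic peptide receptor gene Npr3 at −0.44. Of 11 further layer 6 and 6b markers, 5 were lower, with Sox5, a factor that controls the sequence of deep-layer fates, at −1.18 (SE 0.160), Nr4a2 at −0.92 and Zfpm2 at −0.56. Genes taken as excitatory neuron markers without a layer behaved alike in direction: 4 of 8 were lower, among them Neurod6 at −0.67, Camk2a at −0.69 and Satb1 at −0.78. Whether each of them, Satb1 included, is confined to these neurons was not tested. The medians of these 4 lists were −0.43, −0.34, −0.44 and −0.46. Genes related by sequence to the 9 (Cux1, Rora, Bcl11a, Foxp1 and others) had 3 of 10 lower, a share near that of all genes, led by Rora, the closest relative of Rorb, at −1.16 (SE 0.133), then Rasgrf1 at −0.81 and Etv5 at −0.88.

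Relative to the mean of the 8 excitatory markers in the same mouse, Bcl11b differed by −0.68 on the log2 scale at 3 weeks, Cux2 by 0.46 and Rorb by 0.38, and the other 6 genes lay between −0.30 and 0.14. Markers of other cells moved in both directions. Of 6 oligodendrocyte genes 4 were higher at 3 weeks, led by Mog (log2 difference 1.03), where 1837 of all 16265 genes were higher. The summed level of the list was 3964 to 5928 TPM in the 3-week controls against 2570 to 3491 TPM in the 8-week controls. Astrocyte genes were lower for 3 of 6, with Aqp4 at −0.78, and microglial genes were lower for 3 and higher for 1 of 6. Across all genes 24.8% were lower. Of 8 striatal genes tested, which bear on Bcl11b, none passed, and the sums were 178 to 194 TPM at 3 weeks and 141 to 233 TPM at 8 weeks. The part of these cell types in the layer gene differences was not tested.

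**Figure D3:**
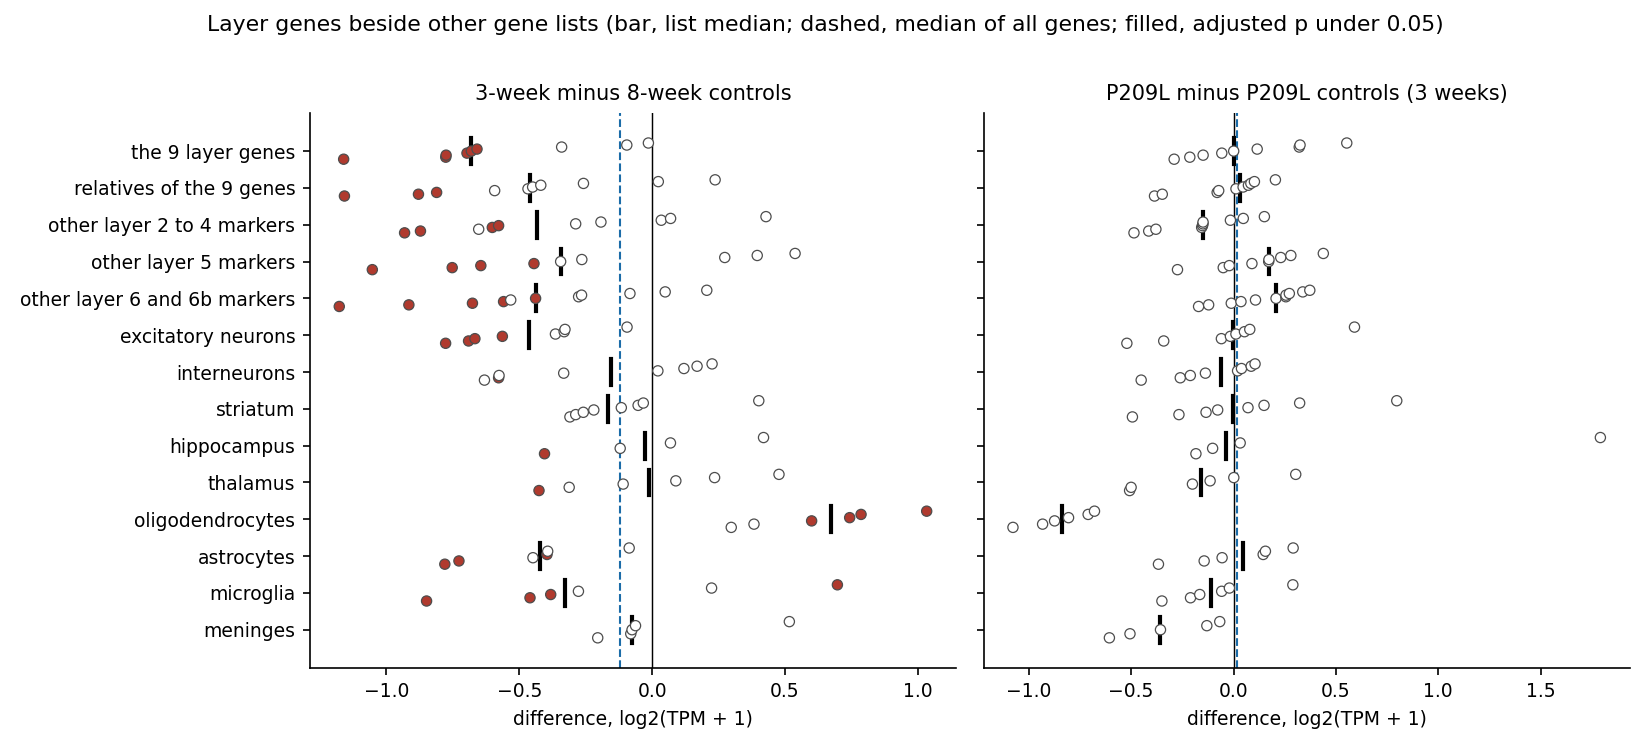
Difference in log2(TPM + 1) of each tested gene (points, filled where the adjusted p was under 0.05) by list (rows), between controls of the 2 ages (left) and between P209L mice and their controls (right), with list medians as bars and the median of all genes dashed. The 9 layer genes have a median of −0.68 on the left and 0.0008 on the right, where the 6 oligodendrocyte genes are all below −0.67.

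P209L mice were then compared with their controls at 3 weeks. The same 2 controls formed the whole 3-week group in the comparison by age, so the 2 comparisons are not independent. None of the 9 layer genes passed (0.0984% of all genes did, 16 of 16265), and at an unadjusted p under 0.05 there was 1, Fezf2, against 7.46% of all genes. Fezf2 was at 23.0, 23.9 and 25.5 TPM in the P209L mice and at 14.4 and 18.0 TPM in their controls. The 3 mutant values lay together above both controls, and within the 13.0 to 27.3 TPM found at 8 weeks. The mean was 24.1 ± 1.31 TPM (SD, n = 3) against 16.2 ± 2.59 TPM (n = 2), a log2 difference of 0.55 (SE 0.199, 95% interval 0.13 to 0.98, limma adjusted p = 0.493). The difference did not survive the adjustment over all genes. It was 0.40 without P209L control 2 and 0.71 without P209L control 1, and without each P209L mouse in turn it lay between 0.51 and 0.59.

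A further 2 deep-layer genes were higher in all 3 P209L mice than in both controls. Tle4 was at 11.4, 11.5 and 13.9 TPM against 9.49 and 9.68 TPM (log2 difference 0.32, SE 0.155, limma adjusted p = 0.684). Bcl11b was at 6.36, 7.08 and 7.76 TPM against 5.14 and 5.72 TPM (log2 difference 0.32, SE 0.197, limma adjusted p = 0.803). Together with Fezf2 these were 3 of the 9 genes without overlap between the groups, while 24.9% of all genes did not overlap, and an exact permutation test of 3 mice against 2 cannot go below a two-sided p of 0.2. The other 3 deep-layer genes were close to their controls: the differences were 0.12 for Foxp2 (0.05 without P209L 1 and 0.06 without P209L control 2), −0.06 for Etv1 and 0.0008 for Tbr1.

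The 3 upper-layer genes were lower on average and overlapped with their controls. Cux2 was at 51.8, 52.1 and 66.4 TPM in P209L mice and its log2 difference was −0.21 (95% interval −0.78 to 0.35). Rasgrf2 was at 46.8, 51.8 and 70.1 TPM, with a difference of −0.29 (95% interval −0.81 to 0.23), and Rorb at 9.27, 10.7 and 14.5 TPM, with a difference of −0.15 (95% interval −0.51 to 0.21). Without each 3-week mouse in turn the differences ran from −0.11 (without P209L control 2) to −0.33 (without P209L 3) for Cux2, from −0.17 (without P209L 1) to −0.46 (without P209L 3) for Rasgrf2, and from −0.02 (without P209L 2) to −0.31 (without P209L 3) for Rorb. In all 3 cases P209L 3 had the highest level and reached or passed the range of the controls. Values for the further lists had the same signs without any call: the medians were −0.15 for 10 markers of layers 2 to 4, 0.17 for 9 of layer 5 and 0.21 for 11 of layer 6 and 6b, against 0.02 over all genes. The genes with the smallest p in these lists were Lamp5 (−0.49), Npr3 (0.28) and Cplx3 (0.26), with limma adjusted p of 0.702, 0.751 and 0.783.

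Setting the genes against each other inside a mouse removes what scales all of them alike. Fezf2 exceeded Etv1 in all 3 P209L mice, with ratios of 1.09, 1.42 and 1.65, and in none of the other 14 mice. The ratio was 0.832 and 0.920 in the P209L controls and 0.432 to 0.790 in the 12 mice at 8 weeks. The ratio of Fezf2 to Tbr1 was 0.727 to 0.883 in P209L mice, 0.470 and 0.608 in their controls and at most 0.446 at 8 weeks. Other ratios overlapped, as that of Fezf2 to Bcl11b (3.08 to 4.01 against 2.80 and 3.15) and that of Cux2 to Rasgrf2 (0.947 to 1.11 against 0.884 and 1.05). Over all 36 pairs of the 9 genes the ratios of P209L mice and controls did not overlap for 17 pairs. These were 6 of the 8 with Fezf2 and 11 of the other 28. The ratios printed here were picked with the values known. All 36 reuse the values of the same 9 genes, so they add no separate result to those of the single genes. The share over ratios of all genes was not computed, so whether these counts of pairs are high is unknown. The 24.9% of single genes without overlap is another measure and cannot stand in for that share. The ratio of Bcl11b to Cux2 was 0.0958 to 0.149 in P209L mice and 0.0728 and 0.0941 in their controls.

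The mean log2(TPM + 1) of the 6 deep-layer genes minus that of the 3 upper-layer genes was −1.20, −1.26 and −1.64 in the P209L mice. It was −1.70 and −1.89 in their controls, and from −1.57 to −1.13 in the 6 controls at 8 weeks. The group mean was 0.43 higher in P209L mice than in their controls, and P209L 3 lay nearest to the controls. The measure was not tested. It draws on the gene values given above, where Foxp2, Etv1 and Tbr1 were close to their controls, so it does not describe all deep-layer genes.

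**Figure D4:**
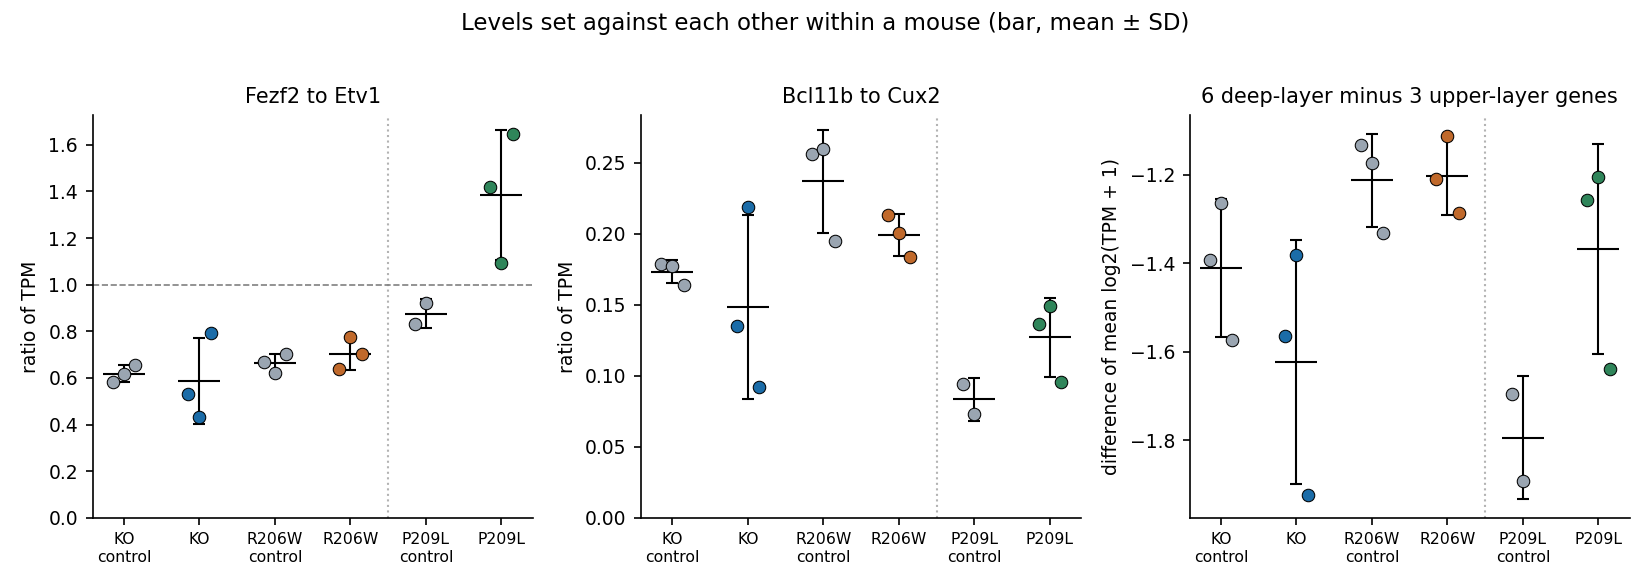
Ratio of Fezf2 to Etv1 (left, with 1 dashed), ratio of Bcl11b to Cux2 (middle) and mean log2(TPM + 1) of 6 deep-layer minus 3 upper-layer genes (right, an axis that does not start at 0) in each mouse, with group means and SD. The Fezf2 to Etv1 ratio is above 1 in the 3 P209L mice only.

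Other markers moved with the P209L comparison. All 6 oligodendrocyte genes were lower at an unadjusted p under 0.05 and none passed the adjustment, with a list median of −0.84, and Mog was at 55.7 ± 7.34 TPM (n = 3) against 98.2 ± 16.6 TPM (n = 2). The summed oligodendrocyte level was 2401 to 3460 TPM in P209L mice and 3964 to 5928 TPM in their controls. Spink8, a marker of hippocampal pyramidal neurons, differed by 1.79 (SE 0.476, limma adjusted p = 0.263), with 3.14 to 18.4 TPM in P209L mice and 0.61 and 2.95 TPM in controls. The other 3 hippocampal genes tested differed by −0.18 (Prox1), −0.10 (Neurod1) and 0.03 (Fibcd1), and the list median was −0.03. The neuropeptide gene Tac1 differed by 0.80 (limma adjusted p = 0.155) and the excitatory neuron gene Neurod6 by 0.59 (limma adjusted p = 0.322), while the summed excitatory markers were 2360 to 3173 TPM against 3065 to 3234 TPM. Whether the dissection or the share of these cells had a part in the values of Fezf2, Tle4 and Bcl11b was not tested.

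In the KO comparison at 8 weeks none of the 9 genes passed, against 0.00615% of all genes (1 of 16265), and 1 of the 9, Foxp2, had an unadjusted p under 0.05 against 4.08% of all genes. Foxp2 was at 1.97, 3.18 and 3.33 TPM in KO mice and at 2.97, 3.91 and 4.95 TPM in KO controls. The groups overlapped through KO control 1, and KO 3 had the lowest Foxp2 of all 17 mice. The log2 difference was −0.37 (SE 0.158, 95% interval −0.70 to −0.03, limma adjusted p = 0.999). It was −0.52 without KO control 1, −0.23 without KO control 2 and −0.20 without KO 3. KO 3 also had the highest Cux2 of all mice, at 105 TPM against 57.5 and 63.1 TPM in the other 2 KO mice.

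The remaining 8 genes differed by −0.15 (Bcl11b) to 0.14 (Cux2) in KO mice, and their 95% intervals together ran from −0.53 to 0.65. No gene of the 9 was free of overlap between KO mice and their controls, against 6.25% of all genes. Their signs rested on KO control 1: with it 5 of the 9 differences were above 0, and without it all 9 were below 0, from −0.11 for Rorb to −0.52 for Foxp2, still with no call. The median of all genes turned too, from 0.06 with KO control 1 to −0.06 without it, so the turn was not particular to the layer genes. Weighting libraries by their quality, which gave KO control 1 a weight of 0.0819, called Bcl11b (−0.44), Fezf2 (−0.39), Foxp2 (−0.47) and Tle4 (−0.26) lower, in a fit that called 13.1% of all genes.

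R206W mice stayed nearest to their controls. None of the 9 genes passed, against 0.0369% of all genes (6 of 16265), and none had an unadjusted p under 0.05, against 2.19% of all genes. The differences ran from −0.10 for Bcl11b to 0.15 for Foxp2, and the 95% intervals together from −0.55 to 0.64. Foxp2 was at 4.97, 5.15 and 5.24 TPM in R206W mice and at 4.36, 4.52 and 4.71 TPM in their controls, so that the groups were apart by a small step. Tle4 was at 17.6, 17.9 and 20.3 TPM against 16.91, 17.04 and 17.05 TPM. These were the 2 of 9 genes without overlap, against 16.2% of all genes, and with 3 mice against 3 the smallest two-sided p of an exact permutation test is 0.1. Fezf2 was at 20.5, 22.7 and 27.3 TPM in R206W mice and 21.6, 21.6 and 25.1 TPM in controls, and R206W 3 had the highest value of its group for every layer gene except Rorb and Foxp2.

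The differences between these effects were tested directly. None of the 9 genes passed for R206W minus KO (0.0307% of all genes did), and 1, Foxp2, had an unadjusted p under 0.05, against 2.29% of all genes. The Foxp2 effects differed by 0.52 on the log2 scale (SE 0.223, limma adjusted p = 1), by 0.34 without KO 3 and by 0.66 without KO control 1. For P209L minus R206W, in which the ages differ too, no gene in the whole table passed (0.0%), and 0 of the 9 against 3.98% of all genes had an unadjusted p under 0.05. The Fezf2 effects differed by 0.52 (95% interval −0.05 to 1.08, limma adjusted p = 1), so the value in P209L mice was not shown to differ from that in R206W mice.

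Wild-type controls of the 2 lines at 8 weeks were compared to give the size of differences between groups that carry no mutant allele. No gene of the whole table passed (0.0%), and 1 of the 9 had an unadjusted p under 0.05, against 3.12% of all genes. Bcl11b was 0.43 higher on the log2 scale in R206W controls (SE 0.176, limma adjusted p = 0.784), with values of 14.4 to 16.6 TPM against 8.01 to 14.0 TPM. This difference was 0.20 without KO control 1 and between 0.39 and 0.57 without each of the other 5 controls. Apart from Bcl11b the differences ran from −0.12 for Rorb to 0.27 for Tbr1, where the median of all genes was 0.13.

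Within groups the 9 genes varied together mainly through 1 mouse. Over 36 pairs of genes the correlation of deviations from the group mean had a median of 0.603 in 17 mice and 0.226 without KO control 1, where it ran from −0.686 (Cux2 with Foxp2) to 0.861. With size factors the medians were 0.291 and 0.158. These correlations are a description over mice that share groups and the scaling of TPM.

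**Figure D5:**
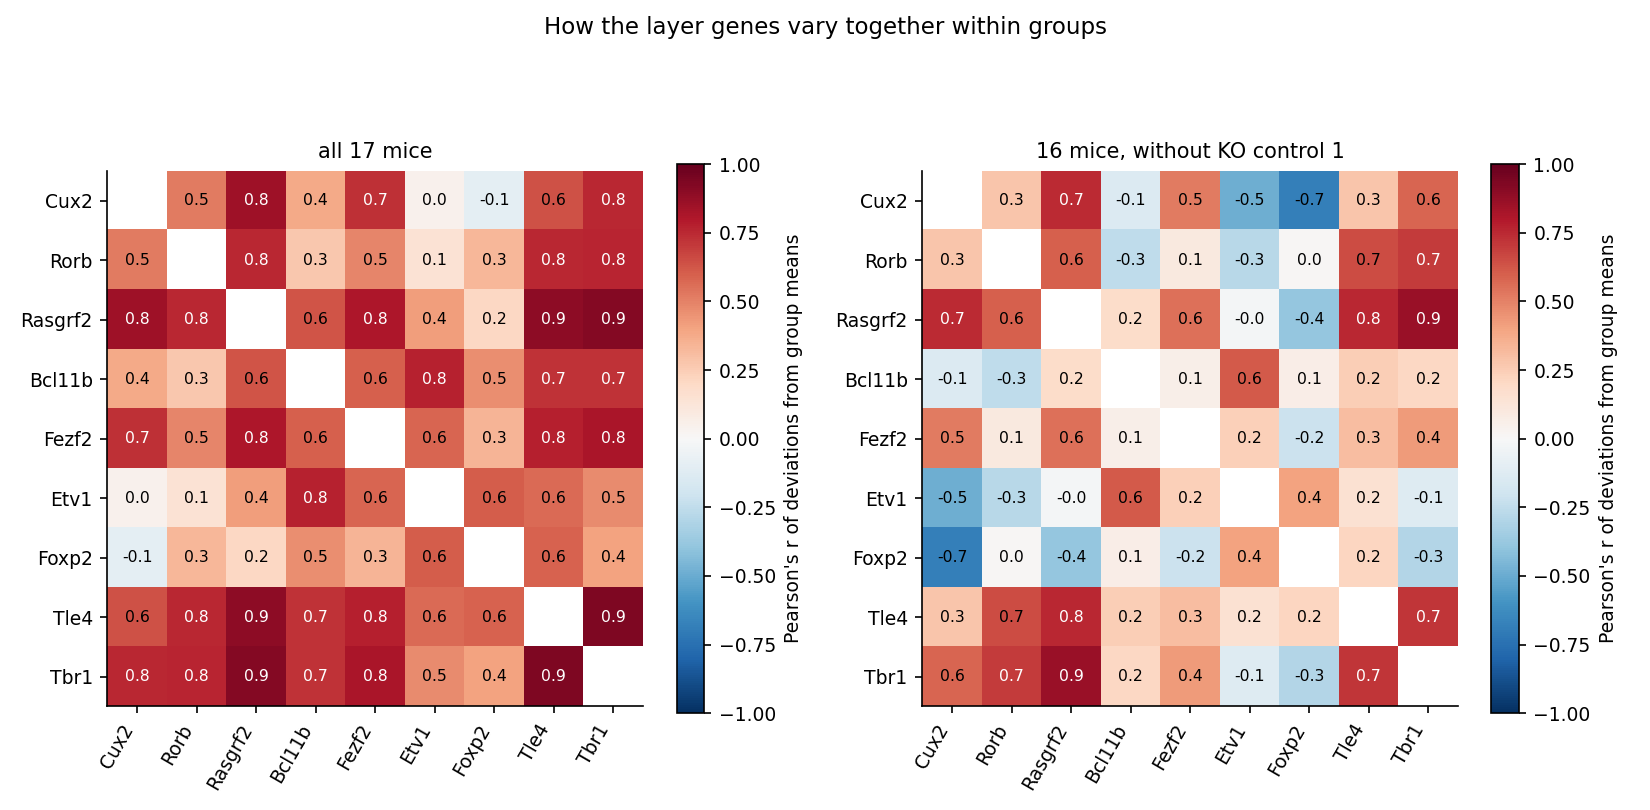
Pearson correlation of the deviations of each pair of layer genes from the group means, in all 17 mice (left) and in 16 mice without KO control 1 (right), from −1 (blue) to 1 (red). Most pairs are positive on the left, and pairs of Foxp2 or Etv1 with Cux2 are negative on the right.

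The genes most like each layer gene in level over the 17 mice, among genes with a mean of at least 5 TPM, were found by Pearson correlation of log2(TPM + 1). For Bcl11b they were Grm5 (r = 0.981), Tm9sf2 and Plxnc1. For Fezf2, which tracked other genes less closely, they were Lamtor3 (r = 0.902), Trip12 and Galnt11. Tle4 was nearest to Atp2b1, Ddx6 and Xpo7 (r = 0.979 to 0.983), and Tbr1 to Ralgapb, Spock1 and Pitpnc1 (r = 0.991 to 0.993). Foxp2 was nearest to Naa15, Htr2a and Gm34583, and Etv1 to Cdk14, Gm5454 and Ppp4r4. Among upper-layer genes Rasgrf2 was nearest to Add2, Ptprm and Trim32 (r = 0.983 to 0.987) and Cux2 to Kcnh4, Dop1b and Sh3bgrl3. Rorb had the weakest likeness, with r of 0.826 to 0.850 for Cox15, Gm4430 and AI593442. No layer gene was among the 3 nearest of another, and the mice share 2 ages and the deviation of KO control 1.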

How the data were processed

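Total RNA from dissected, frozen cortex was made into stranded total RNA libraries, and the submitters' processing notes name Trim Galore, STAR 2.7.1a, GATK 4.0.4.0, RSEM and mm10. The authors deposited 1 table of TPM values per gene and mouse, so that every mouse has the same total and read depth is unknown. The 55573 entries were reduced to 55453 distinct symbols. Genes with a mean of at least 1 TPM (16265) were tested on log2(TPM + 1) with limma 3.58.1 in R 4.3.3 (6 group means, 1 shared spread, moderated variance with trend, two-sided, Benjamini-Hochberg adjustment over all genes tested per comparison, threshold 0.05). TPM is not a count, so no count model was used, and log2 differences of low genes are understated by the pseudocount of 1. The labels give separate mice as replicates. Exact permutation tests compared mean TPM of single genes. The procedure was tested on simulated data with known changes. The 9 genes and the other lists were chosen with earlier results of these data known. All 9 genes are named; of each list, at most 3 called genes are named in order of p, or the first in that order where none was called; 1 such gene is not reported here. The study's own test for these mice was not given in the sources used here. Scaling, filter, pseudocount, weights, samples fitted and each left-out mouse were varied.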

Additional observations from a re-analysis of the deposited data

How the results depend on the processing

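The number of layer genes called stayed at 0 under every alternative run for the R206W, P209L and P209L minus R206W effects and for the controls of the 2 lines at 8 weeks. Library weights raised it from 0 to 4 for the KO effect and from 0 to 1 (Foxp2) for R206W minus KO. The count of 6 between controls of the 2 ages lay between 4 and 7 with all mice, and between 2 and 7 without each mouse in turn, the lowest without P209L control 2; fewer mice were fitted there. Bcl11b and Tle4 were called in all 32 fits of that comparison. With a filter at a mean of 5 TPM Foxp2 was not tested. A pairing by replicate number had no base: same-numbered mice had correlations of deviations from −0.169 to 0.331, and 6 of 17 mice correlated best with a mouse of their own number. With the number as a block the count of layer genes called was the same in every comparison (6 between ages, 0 elsewhere). The block moved the calls over all genes in the P209L effect from 16 to 25. Calls over all genes ranged over the alternatives from 0 to 2138 in the KO effect, 5 to 149 in the R206W effect, 6 to 93 in the P209L effect, 3 to 319 for R206W minus KO, 0 to 7 for P209L minus R206W, 0 to 26 between the controls of the 2 lines and 2719 to 9470 between ages. The depth is unknown, so what it limits could not be given.

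Among the differences followed over the alternatives, signs turned only for those that were not called, and the cause was not tested. In the R206W effect only Bcl11b (−0.20 to −0.034) and Foxp2 (0.12 to 0.17) were followed, and neither turned. Signs of the other layer genes in that effect are not given. In the KO effect weights gave −0.23 for Cux2, −0.15 for Rasgrf2, −0.15 for Etv1 and −0.27 for Tbr1. Size factors gave −0.039 for Rorb, −0.056 for Etv1 and −0.061 for Tbr1, quantile normalization −0.039, −0.029 and −0.047 for the same genes, and leaving out mitochondrial genes −0.0005 for Tbr1. Size factors without KO control 1, an alternative chosen after seeing the data, gave −0.058 for Cux2, −0.049 for Rorb, −0.11 for Rasgrf2, −0.13 for Etv1 and −0.26 for Tbr1. Without each mouse in turn the KO effect ran from −0.12 to 0.33 for Cux2, −0.11 to 0.19 for Rorb, −0.18 to 0.33 for Rasgrf2, −0.35 to 0.053 for Fezf2, −0.28 to 0.024 for Tle4, −0.19 to 0.18 for Etv1 and −0.33 to 0.24 for Tbr1, always lowest without KO control 1. In the P209L effect weights gave 0.051 for Etv1 and −0.044 for Tbr1; Tbr1 was −0.022 after quantile normalization, −0.0041 without mitochondrial genes, −0.080 with the replicate block and −0.0011 with the added alternative. Without each mouse in turn Etv1 ran from −0.28 to 0.17 and Tbr1 from −0.11 to 0.077. Between ages Cux2 was 0.13 with size factors, 0.099 after quantile normalization, 0.15 with the block and 0.064 with the added alternative, and ran from −0.15 to 0.093 without each mouse in turn; Rorb was 0.036, 0.074 and 0.032 with size factors, quantile normalization and the added alternative.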
